A study of Mus musculus with 12 samples.

Results

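The suppressor of cytokine signalling (SOCS) family comprised 8 genes here, SOCS1 to SOCS7 and CISH, taken by symbol from a table of 23636 gene symbols, and all 8 had a row. The libraries were made from CT26, a mouse colon carcinoma line, in 4 groups of 3 biological replicates. The No treatment group received neither protein. The CX3CL1 group received recombinant CX3CL1, the chemokine fractalkine, at 2 µg/ml, the IFN-γ group received the cytokine IFN-γ at 100 ng/ml, and the CX3CL1+IFN-γ group received both. Cells were harvested after 8 hours. Doses in the combined group were taken to be those of the single treatments. The labels name CX3CL1 and IFN-γ and give no order of addition. The authors' text also names TNF-α and places CX3CL1 last, while their figure legend names IFN-γ and CX3CL1 only. Below, "added to" names a comparison of groups and not an order of treatment. All groups were cultures of 1 established line. The labels call the replicates biological without saying what was separate about them, so the p-values measure the spread between these 12 libraries.

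SOCS proteins are feedback inhibitors of cytokine receptors. A cytokine receptor activates Janus kinases (JAKs), which phosphorylate STAT transcription factors, and STATs switch on some of the SOCS genes. The SOCS protein then binds the receptor or the kinase through its SH2 domain, and its SOCS box recruits a ubiquitin ligase. SOCS1 is best known as a brake on interferon signalling, SOCS3 as a brake on STAT3 signalling by receptors that use gp130, and CISH and SOCS2 as brakes on STAT5 signalling. SOCS4 to SOCS7 have less cytokine-driven expression and act in part on receptor tyrosine kinases.

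Levels are given in TPM, a transcript abundance that the authors scaled to gene length and to a fixed library total, so levels of different genes can be set side by side. TPM do not keep the reads behind a value, and the spread between replicates is the only error given. In bulk libraries, more cells with a transcript and more transcript per cell cannot be told apart. Differences were tested by limma on log2(TPM + 1) in 11878 genes, those whose mean reached 0.2 TPM or more, and a gene was called at a Benjamini-Hochberg adjusted p under 0.05. With 3 libraries a group the smallest p of an exact permutation test is 0.1, and the calls therefore depend on limma's sharing of variance across genes. Comparisons that share a group of libraries are not independent of each other. Of the markers of carcinoma epithelium, EPCAM was listed at 0 in all 12 libraries and KRT8 reached at most 0.364 TPM, while KRT18 ran from 18.4 to 53.6 TPM and the mesenchymal gene VIM from 1680 to 4830 TPM. The 6 leukocyte markers summed to at most 0.156 TPM in any library.

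Start-site sequence was found for 4 of the 8 members (SOCS1, SOCS3, SOCS4 and CISH) in RefSeq's GRCm38.p6 table, which holds 250 bases before and 50 after the annotated start, and the matches to STAT and interferon motifs are shown because SOCS1, SOCS3 and CISH are known for cytokine feedback. The STAT motif searched was TTCNNNGAA, which reads the same on both strands, and the interferon-stimulated response element was searched on both strands as a pair of GAAA runs with any 2 bases between them. A kappa B motif was also searched on both strands. In each line the matching bases are in capitals.
SOCS1, interferon motif, chr16:10785600-10785623, minus strand: gccgGAAAGAGAAACCGAAAgcgg
SOCS3, STAT motif, chr11:117969508-117969524, minus strand: agccTTCTTAGAAggga
CISH, STAT motif, chr9:107296655-107296682, plus strand: agttTTCCTGGAAagTTCTTGGAAatct
The SOCS1 window lies from 87 to 64 bases before the start and holds 2 overlapping matches. The SOCS3 match lies from 158 to 142 bases before the start, flanks included, and the 2 CISH matches lie directly at the start. These distances count from RefSeq's starts, at 10785536 for SOCS1, 117969366 for SOCS3 and 107296659 for CISH. For SOCS3 and CISH the GENCODE gene, whose ends are printed with each member, begins upstream of that start, so both windows lie inside it. No match to the other motifs was found in these windows, and SOCS4 held none of the 3. Among all 32851 windows of 300 bases, 8.3% held the STAT motif, 3.44% the interferon motif and 4.51% the kappa B motif. A match is a run of letters and was not tested for binding.

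The family differed widely in level before any treatment. In untreated cells SOCS5 was highest at 68.6 ± 3.76 TPM (SD, n = 3), followed by SOCS6 at 34.8 ± 4.11 TPM, SOCS4 at 25.0 ± 1.61 TPM and SOCS3 at 15.9 ± 0.984 TPM. SOCS7 (12.9 ± 1.04 TPM) and SOCS1, whose libraries overlapped, came next. SOCS2 was at 7.92 ± 0.833 TPM and CISH was far below the rest at 0.139 ± 0.0264 TPM. The 3 most abundant members, SOCS4, SOCS5 and SOCS6, made up 14.2%, 38.9% and 19.8% of the summed TPM of the family, against 6.26% for SOCS1 and 9.03% for SOCS3.

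The ranges over the 12 libraries set 3 members apart from the others. The highest level of SOCS3 was 3.92 times its lowest, and that of SOCS1 was 3.28 times its lowest. CISH had a ratio of 3.0, but between values of 0.0871 and 0.261 TPM. SOCS2 spanned a ratio of 2.22, SOCS6 1.56, SOCS5 1.49, SOCS4 1.38 and SOCS7 1.2.

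**Figure D1:**
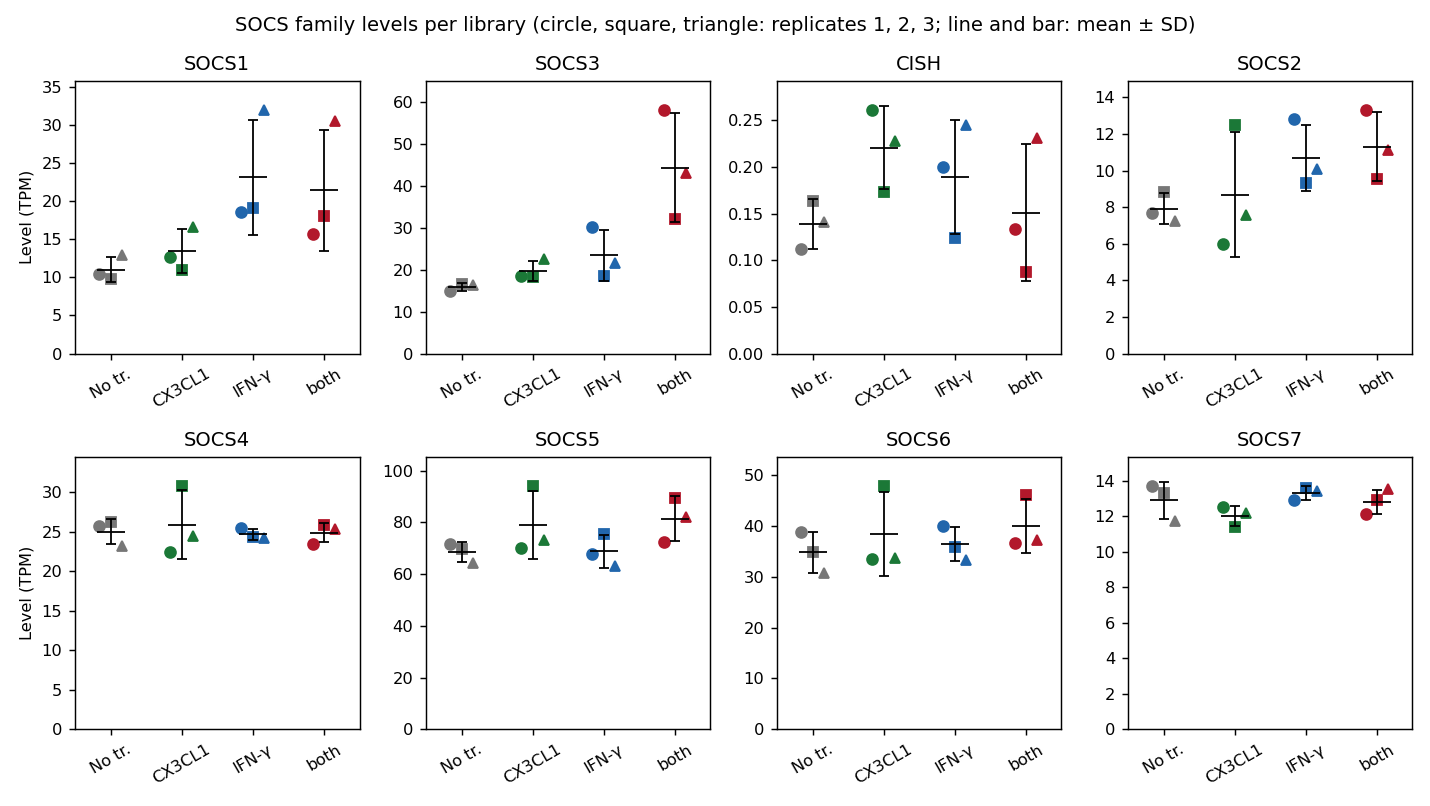
Level of each SOCS family gene in TPM (vertical axes, from 0, scaled per gene) in the 4 groups (No tr., no treatment, and both, CX3CL1+IFN-γ), with 1 point per library, and the mean and SD as a line and bar. SOCS3 reached 58.0, 32.0 and 43.0 TPM with both proteins, above all other libraries, while SOCS7 stayed between 11.4 and 13.7 TPM in all 12.

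SOCS1, which blocks JAK catalytic activity and is a known feedback gene of IFN-γ, lies on chromosome 16 from 10782240 to 10785536 on the minus strand (GRCm38). It rose with IFN-γ. Its levels in untreated replicates 1 to 3 were 10.4, 9.73 and 12.9 TPM. With CX3CL1 they were 12.7, 10.9 and 16.6 TPM. With IFN-γ they were 18.5, 19.1 and 31.9 TPM, and with CX3CL1+IFN-γ 15.7, 18.0 and 30.5 TPM. Every IFN-γ library was above every untreated library, and replicate 3 was the highest of its group in all 4 groups. The CX3CL1+IFN-γ libraries overlapped both the IFN-γ and the CX3CL1 libraries.

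The IFN-γ mean of SOCS1 was 2.1 times the untreated mean, or 0.97 on the log2 scale with a standard error of 0.252 (limma, adjusted p = 0.0327). The ratio of libraries with the same replicate number was 1.77, 1.96 and 2.47. The call was close to the threshold. It was lost with median-ratio scaling (adjusted p = 0.0554), without the filter on low TPM (0.0825) and without untreated replicate 1, 2 or 3 (0.0866, 0.109 and 0.0611). Without IFN-γ replicate 3, the highest of the IFN-γ libraries, the log2 fold change was 0.72 (adjusted p = 0.146). With the replicate number as a block the adjusted p was 3.09e-04, and over all alternatives the log2 fold change stayed between 0.72 and 1.10.

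CX3CL1 alone gave no detectable difference in SOCS1, with a log2 fold change of 0.25 and a 95% interval from -0.30 to 0.80. Added to IFN-γ, it gave a log2 fold change of -0.12 with an interval from -0.67 to 0.43, and from -0.39 to 0.12 with 1 library left out. The interval of each comparison allows a change of over 0.4 on this scale, so neither shows that CX3CL1 left SOCS1 unchanged. IFN-γ added to CX3CL1 gave a SOCS1 difference of 0.60 on the log2 scale (95% interval from 0.05 to 1.14), which was not called (adjusted p = 0.232). Without CX3CL1+IFN-γ replicate 3 it was 0.32 (adjusted p = 0.583). With the replicate number as a block, the same difference was called (adjusted p = 0.00939), and each CX3CL1+IFN-γ library was above the CX3CL1 library with its number, by ratios of 1.24, 1.64 and 1.84.

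SOCS3, which binds gp130 and is a known feedback gene of STAT3, lies on chromosome 11 from 117966079 to 117970047 on the minus strand. It was highest when both proteins were present. Untreated replicates 1 to 3 were at 14.8, 16.6 and 16.4 TPM. CX3CL1 libraries were at 18.4, 18.2 and 22.5 TPM, and IFN-γ libraries at 30.1, 18.5 and 21.5 TPM. CX3CL1+IFN-γ libraries were at 58.0, 32.0 and 43.0 TPM. All 3 of the last group lay above the other 9 libraries, and the CX3CL1 and the IFN-γ libraries, which overlapped each other, lay above the untreated ones.

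IFN-γ added to CX3CL1 raised SOCS3 2.25-fold, from a mean of 19.7 ± 2.43 TPM to 44.3 ± 13.0 TPM (SD, n = 3 each). On the log2 scale the difference was 1.10 with a standard error of 0.203 (limma, adjusted p = 0.00748). The call was kept under all 12 alternatives, with log2 fold changes from 0.89 to 1.30 and adjusted p from 0.00247 to 0.0331. Replicate 1 had the largest ratio between libraries of the same number, 3.15, against 1.76 and 1.91 in replicates 2 and 3.

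CX3CL1 added to IFN-γ gave a SOCS3 mean 1.9 times that of IFN-γ alone, 44.3 ± 13.0 against 23.4 ± 6.02 TPM (SD, n = 3 each). Its log2 fold change of 0.88 (standard error 0.203, 95% interval from 0.44 to 1.32) had an unadjusted p of 8.57e-04 in limma, rank 69 of the 11878 genes tested. It was not called over all genes (adjusted p = 0.146). With the replicate block the adjusted p was 0.0567, and the ratios within replicate numbers were close, at 1.93, 1.73 and 2.0. Without CX3CL1+IFN-γ replicate 2, the lowest library of its group, the log2 fold change was 1.09 and was called (adjusted p = 0.029), the only 1 of 12 alternatives to call it. Without CX3CL1+IFN-γ replicate 1 it was 0.67 (adjusted p = 0.56), without IFN-γ replicate 2 it was 0.74 (adjusted p = 0.728), and with only the libraries compared the adjusted p was 0.429.

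Each protein alone was followed by a smaller difference in SOCS3. For IFN-γ it was 0.50 on the log2 scale (95% interval from 0.06 to 0.94, limma, adjusted p = 0.169), and for CX3CL1 0.29 (95% interval from -0.15 to 0.73, adjusted p = 0.981). Neither was called under any alternative. Without IFN-γ replicate 1, the highest of its group, the IFN-γ value was 0.31 (adjusted p = 0.501), and without CX3CL1 replicate 3 the CX3CL1 value was 0.19 (adjusted p = 0.954). The 2 CX3CL1 effects on SOCS3, with and without IFN-γ, differed by 0.60 on the log2 scale (standard error 0.287, 95% interval from -0.03 to 1.22, adjusted p = 1.0), so a larger effect in the presence of IFN-γ was not shown. The mean with both proteins was 2.79 times the untreated mean, with ratios of 3.92, 1.93 and 2.62 within replicate numbers.

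The ratio of SOCS3 to SOCS1 is given per library as a description. SOCS3 was 1.42, 1.7 and 1.27 times SOCS1 in the untreated libraries, and 1.44, 1.67 and 1.36 times with CX3CL1. With IFN-γ the ratio was 1.63, 0.973 and 0.673, the lowest of the groups in replicates 2 and 3. With both proteins it was 3.69, 1.78 and 1.41. Replicate 1 carried the high ratio in both groups given IFN-γ, and this ratio was not tested.

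**Figure D2:**
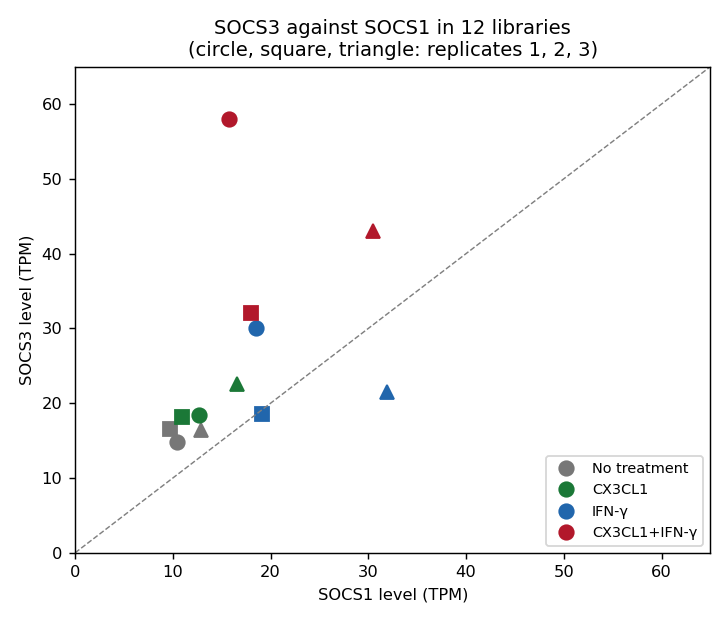
SOCS3 level against SOCS1 level, both in TPM, in the 12 libraries, with the colour giving the group, the shape the replicate and the dashed line equal levels. The IFN-γ libraries moved to the right, to 18.5 TPM or more of SOCS1, and the CX3CL1+IFN-γ libraries lay higher, at 32.0 TPM or more of SOCS3.

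CISH, a SOCS protein induced by STAT5 in lymphoid and erythroid cells, lies on chromosome 9 from 107296026 to 107302784 and was near the floor of the measurement. Its levels were 0.112, 0.164 and 0.141 TPM in untreated replicates 1 to 3 and 0.261, 0.173 and 0.228 TPM with CX3CL1. They were 0.2, 0.124 and 0.245 TPM with IFN-γ and 0.134, 0.0871 and 0.231 TPM with both. The CX3CL1 libraries lay just above the untreated ones and the other groups overlapped them. With a mean of 0.175 TPM, CISH was the only member that did not pass the filter. When no filter was applied, its log2 fold change with CX3CL1 was 0.10 with a standard error of 0.05 (limma, adjusted p = 0.798), and no comparison called it. GENCODE places an antisense gene and a pseudogene on the opposite strand over CISH, and whether reads were counted by strand is not given in the sources used here.

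SOCS2, a feedback inhibitor of growth hormone signalling, lies on chromosome 10 from 95385362 to 95417180. Untreated replicates 1 to 3 were at 7.68, 8.85 and 7.24 TPM, CX3CL1 libraries at 5.99, 12.5 and 7.56 TPM, IFN-γ libraries at 12.8, 9.32 and 10.1 TPM and CX3CL1+IFN-γ libraries at 13.3, 9.54 and 11.1 TPM. All IFN-γ libraries were above all untreated libraries, and the CX3CL1 libraries spread over most of the range of the gene. The difference in SOCS2 with IFN-γ was 0.39 on the log2 scale (95% interval from -0.07 to 0.85) and was not called (adjusted p = 0.307). IFN-γ added to CX3CL1 also gave 0.39, with the same interval (adjusted p = 0.372). This value moved with single libraries in both directions. It was 0.66 and was called without CX3CL1 replicate 2 (adjusted p = 0.0438), and 0.18 without CX3CL1 replicate 1 (adjusted p = 0.673). Without CX3CL1 replicate 2 the CX3CL1 effect on SOCS2 moved from 0.07 to -0.20, and neither value was called.

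SOCS5, which can target the epidermal growth factor receptor, lies on chromosome 17 from 87107679 to 87137839 and was the most abundant member in every group. Its untreated levels were 71.7, 69.6 and 64.4 TPM and its CX3CL1 levels 70.1, 94.1 and 73.1 TPM. With IFN-γ they were 67.6, 75.7 and 63.2 TPM and with both proteins 72.3, 89.6 and 82.2 TPM. The groups overlapped in each of the 4 comparisons, although the libraries with both proteins all lay above the untreated ones. The log2 fold change of SOCS5 with CX3CL1 was 0.19 without IFN-γ and 0.24 with it (standard error 0.124), neither of them called, with 95% intervals from -0.08 to 0.46 and from -0.03 to 0.51. That with IFN-γ alone was 0.00 with a 95% interval from -0.27 to 0.27.

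SOCS6 and SOCS4, which have been linked to receptor tyrosine kinases, correlated with SOCS5 across libraries, in part through 1 library. SOCS6, on chromosome 18 from 88665224 to 88927481, had group means of 34.8 ± 4.11 TPM untreated, 38.4 ± 8.26 TPM with CX3CL1, 36.4 ± 3.32 TPM with IFN-γ and 40.0 ± 5.31 TPM with both (SD, n = 3). SOCS4, on chromosome 14 from 47276931 to 47296102, had means of 25.0 ± 1.61, 25.9 ± 4.39, 24.7 ± 0.7 and 24.9 ± 1.24 TPM in the same order. Across the 12 libraries, Pearson's r of log2(TPM + 1) was 0.83 between SOCS5 and SOCS6, 0.78 between SOCS4 and SOCS6 and 0.68 between SOCS4 and SOCS5, as a description of libraries that share groups. CX3CL1 replicate 2 was the highest library for all of SOCS4 (30.8 TPM), SOCS5 (94.1 TPM) and SOCS6 (47.9 TPM). This library was also the least like its group, with correlations of 0.9839 and 0.9868 to the other CX3CL1 libraries, against 0.9941 between those. Without it, an alternative chosen after seeing the data for these correlations, r was 0.72, 0.62 and 0.4 in the same order. Also without it, the log2 fold change with CX3CL1 was -0.09 for SOCS4 and -0.04 for SOCS6, and that of SOCS4 with IFN-γ added to CX3CL1 moved from -0.04 to 0.09. For these values no call was made with or without it.

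SOCS7, an adaptor that binds NCK and other signalling proteins, lies on chromosome 11 from 97362551 to 97398542 and varied least. Its 12 levels ran from 11.4 to 13.7 TPM with a median of 12.9 TPM, and the groups overlapped in each of the 4 comparisons. The log2 fold changes of SOCS7 ran from -0.09 to 0.09 over the 4 comparisons, each with a standard error of 0.098.

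Each count of members called is given beside the share of all genes called. With IFN-γ against no treatment, 1 of the 7 members tested was called (SOCS1), where 7.85% of all genes tested were called. The libraries did not overlap for 3 of the 7 (SOCS1, SOCS2 and SOCS3), where 34.2% of all genes tested did not overlap, so this share was near the background. With CX3CL1 against no treatment, none of the 7 was called by limma, where 1.95% of all genes were called. None of the 7 had an unadjusted p under 0.05 in limma, where 958 of all 11878 genes did. The libraries of 1 of the 7 did not overlap (SOCS3), where 11.2% of all genes did not. With CX3CL1 added to IFN-γ, none was called, where 0.362% of all genes were called. In limma 1 of the 7 had an unadjusted p under 0.05 (SOCS3), where 517 of all 11878 genes did. The libraries of 1 of the 7 did not overlap (SOCS3), against 16.3% of all genes. With IFN-γ added to CX3CL1, 1 of the 7 was called (SOCS3), where 4.7% of all genes were called, and 1 of the 7 did not overlap (SOCS3) against 19.5%. In the interaction 0 genes of all 11878 were called (0.0%), with 273 at an unadjusted p under 0.05 in limma and 52 called with the replicate block, none of them a member. The median log2 fold change of the 7 members was 0.12, 0.07, 0.07 and 0.09 in the 4 comparisons as ordered in the plot of log2 fold changes, beside -0.02, 0.03, 0.00 and 0.04 over all genes tested.

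**Figure D3:**
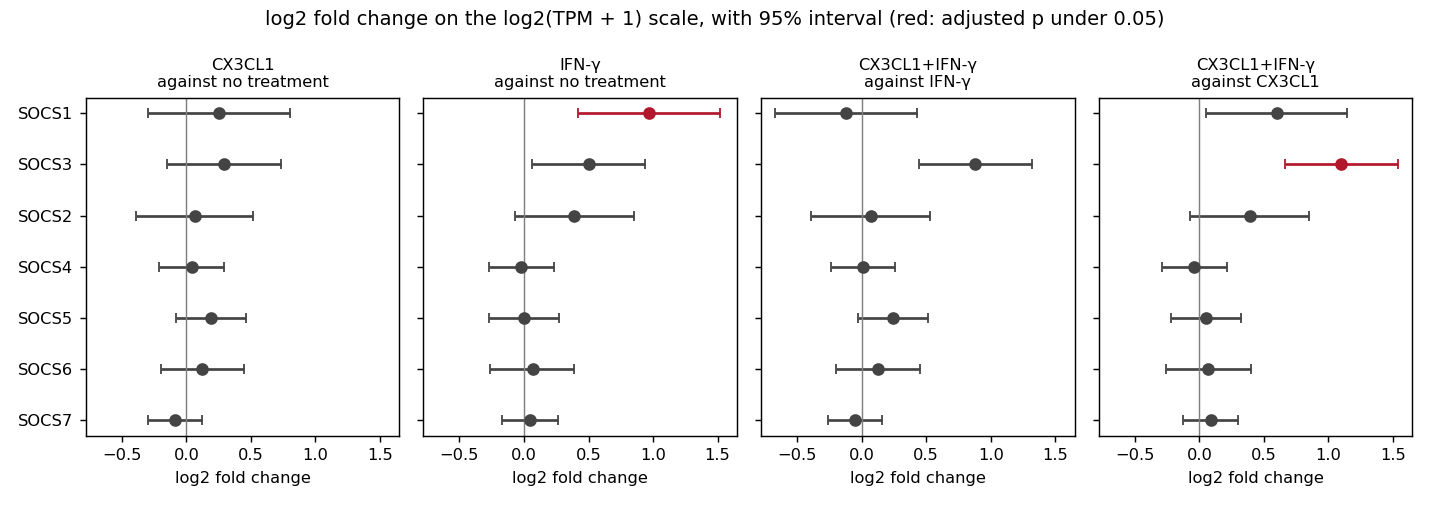
Log2 fold change on the log2(TPM + 1) scale (horizontal axes) of the 7 members tested, with 95% intervals from limma, in the 4 comparisons, and adjusted p under 0.05 in red. The called values are SOCS1 with IFN-γ (0.97) and SOCS3 with IFN-γ added to CX3CL1 (1.10). The intervals of SOCS2, SOCS4, SOCS5, SOCS6 and SOCS7 include 0 in all 4.

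The summed level of the 8 members was 183.0, 179.0 and 167.0 TPM in untreated replicates 1 to 3 and 176.0, 226.0 and 190.0 TPM with CX3CL1. It was 207.0, 197.0 and 198.0 TPM with IFN-γ and 232.0, 234.0 and 243.0 TPM with both proteins. The sums with both proteins lay above those of all other libraries. SOCS3 made up 9.03% of the untreated sum and 18.8% of the sum with both proteins, and SOCS1 6.26% and 9.05%.

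STATs and JAKs act upstream of SOCS genes. STAT2, a subunit of the factor that drives interferon-stimulated genes, had means of 22.5 ± 5.7 TPM untreated and 145.0 ± 31.6 TPM with IFN-γ (SD, n = 3 each), 2.64 higher on the log2 scale (limma, adjusted p = 7.64e-06). STAT3, the main transducer of gp130 receptors, rose from 18.3 ± 3.05 TPM to 32.8 ± 5.87 TPM, a log2 fold change of 0.80 (adjusted p = 0.00887). With CX3CL1 alone STAT2 was called higher, by 1.42 on the log2 scale (adjusted p = 0.00288), while the SOCS1 libraries of these groups overlapped. STAT2 and STAT3 were also called higher with IFN-γ added to CX3CL1, and neither was called with CX3CL1 added to IFN-γ. The STAT5 genes were low, at 1.82 TPM (STAT5A) and 7.93 TPM (STAT5B) untreated, and neither was called in any comparison.

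The 10 IFN-γ receptor and response genes were chosen with earlier results of these data known. They are therefore no independent check of the treatment. With IFN-γ, 8 were called higher and none lower, where 7.85% of all genes tested were called. Their median log2 fold change was 2.05. The 2 not called were the receptor subunits IFNGR1 (log2 fold change -0.14, adjusted p = 0.427) and IFNGR2 (0.49, adjusted p = 0.0831). IRF1, a transcription factor of the interferon response, was at 20.5, 18.7 and 19.4 TPM untreated and at 78.7, 77.6 and 166.0 TPM with IFN-γ. Replicate 3 was the highest IFN-γ library for IRF1, STAT2 and SOCS1. With CX3CL1 alone IRF9 and GBP2 were called higher, where 1.95% of all genes tested were called. With CX3CL1 added to IFN-γ none of the 10 was, where 0.362% of all genes were.

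Cytokines that signal through gp130 or STAT3 can induce SOCS3. Of 18 genes for such cytokines and their receptors, chosen with earlier results of these data known, 11 were tested. With CX3CL1 alone 2 were called higher (IL6 and LIF), where 1.95% of all genes tested were called. With IFN-γ 4 were (IL6, LIF, CLCF1 and OSMR), where 7.85% were called. With CX3CL1 added to IFN-γ 1 was (IL6), where 0.362% were called. With IFN-γ added to CX3CL1, 2 were called higher, where 4.7% of all genes were called. These were IL6, by 2.87 on the log2 scale (limma, adjusted p = 3.66e-05), and OSMR, by 1.39 (adjusted p = 0.00159). None was called lower in any comparison. IL6 was at 4.39, 4.5 and 4.27 TPM with IFN-γ and at 24.9, 13.6 and 29.6 TPM with both proteins, a log2 fold change of 2.07 (adjusted p = 7.54e-04). LIF was at 17.3, 13.8 and 21.7 TPM with IFN-γ and at 46.6, 23.9 and 47.0 TPM with both, a log2 fold change of 1.07 that was not called (adjusted p = 0.179). In each of these genes, as in SOCS3, replicate 2 was the lowest of the CX3CL1+IFN-γ libraries. The gp130 gene itself, IL6ST, was at 67.8 TPM untreated and 82.2 TPM with both, and was not called in any comparison. LIFR and CSF3R, receptors for LIF and granulocyte colony-stimulating factor, had group means of at most 0.00128 TPM.

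**Figure D4:**
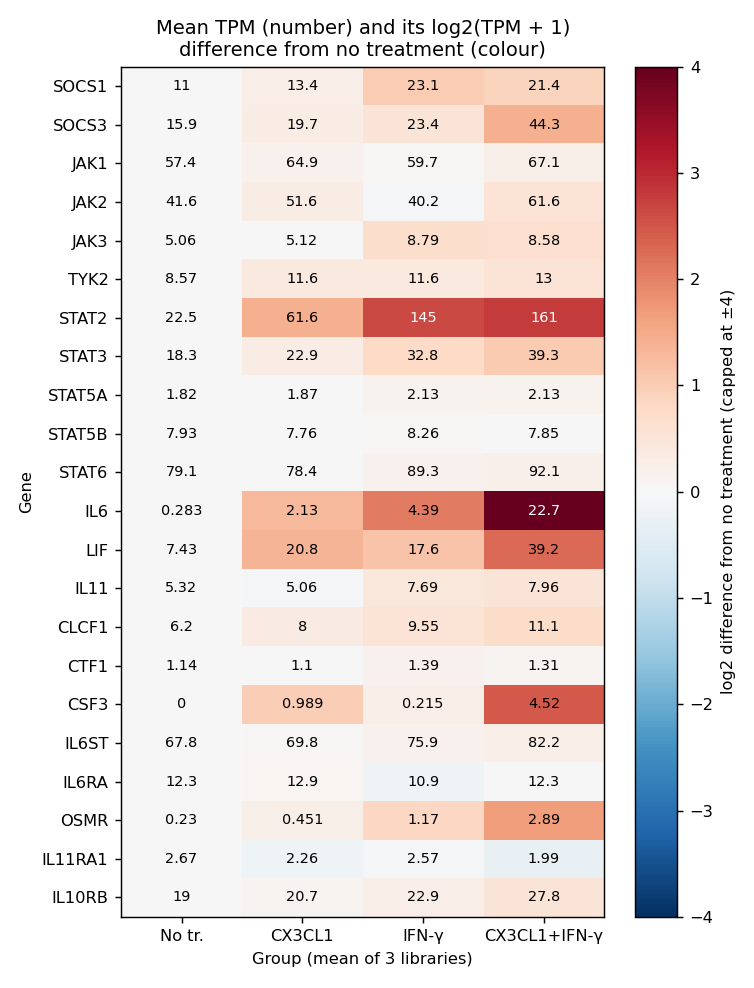
Mean TPM of 3 libraries (numbers) and its log2(TPM + 1) difference from no treatment (colour, capped at 4 in either direction) for SOCS1, SOCS3 and tested genes of the JAK, STAT and gp130 lists. STAT2 was at 145.0 TPM with IFN-γ and 161.0 TPM with both proteins, while IL6 and SOCS3 were highest with both.

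STAT5-linked cytokines and receptors, which bear on CISH and SOCS2, were mostly near 0. Of 18 genes, 5 were tested. IL2RG, the common gamma chain, was called higher with IFN-γ (log2 fold change 1.32, adjusted p = 1.54e-04) and with IFN-γ added to CX3CL1 (0.93, adjusted p = 0.0047). It was the only 1 of the 5 called, where 7.85% and 4.7% of all genes tested were called in these comparisons. The growth hormone receptor GHR was at 37.1 TPM untreated, 56.7 TPM with CX3CL1 and 54.7 TPM with IFN-γ, and was not called (adjusted p = 0.436 and 0.171). The receptors PRLR, CSF2RA and CSF2RB had group means of at most 0.00725 TPM.

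SOCS proteins act through a ligase made of elongins B and C, cullin 5 and the RING protein RNF7. All 7 genes of this machinery were tested and none was called in any of the 4 comparisons or in the interaction, with 0 at adjusted p under 0.05 in limma. ELOB had the highest mean of them, 826.0 TPM untreated and 728.0 TPM with both proteins, and CUL5 was at 43.9 and 40.9 TPM. At most 7.85% of all genes tested were called in any comparison. Of 27 other genes for SOCS box proteins, 13 were tested. With IFN-γ 1 of the 13 was called, where 7.85% of all genes tested were, so this share was near the background. No other comparison called any of them. SPSB1, a SOCS box protein that targets inducible nitric oxide synthase, rose with IFN-γ, from 7.62 ± 0.868 to 11.8 ± 1.04 TPM (SD, n = 3 each), by 0.57 on the log2 scale (limma, adjusted p = 0.0127). With both proteins SPSB1 was at 17.4, 12.8 and 15.0 TPM, and IFN-γ added to CX3CL1 gave a log2 fold change of 0.47 that was just over the threshold (adjusted p = 0.0503).

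Other negative regulators of the pathway act on receptors, kinases or STATs. All 11 phosphatases, PIAS proteins and adaptors on the list were tested. USP18, which blocks the type I interferon receptor, was the only one called. It was called with CX3CL1 and with IFN-γ, where 1.95% and 7.85% of all genes tested were called. From 33.1 ± 10.5 TPM untreated (SD, n = 3), it rose to 181.0 ± 57.7 TPM with CX3CL1, by 2.42 on the log2 scale (limma, adjusted p = 5.81e-04). With IFN-γ it rose to 306.0 ± 59.8 TPM, by 3.20 (adjusted p = 1.39e-05). The phosphatase genes PTPN1, PTPN2, PTPN6 and PTPN11 had log2 fold changes between -0.16 and 0.22 in the 4 comparisons.

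The genes most like SOCS1 over the 12 libraries, by Pearson's r of log2(TPM + 1) among genes tested, were NUDT13 (0.982), a RIKEN clone gene (0.96), RNF135 (0.958), LAG3 (0.957) and BC147527 (0.954). All 5 had higher means in both groups given IFN-γ than in the others, as SOCS1 had. They were picked for that likeness, so it is no separate result. RNF135 had means of 5.64 and 6.12 TPM without IFN-γ and 10.3 and 10.1 TPM with it. The genes most like SOCS3 were IL1A (0.986), OSMR (0.954), CEBPB (0.95), CATIP (0.947) and HP (0.944). IL1A encodes the cytokine IL-1α, OSMR the oncostatin M receptor, CEBPB a transcription factor of the acute-phase response and HP haptoglobin, an acute-phase protein. OSMR had means of 0.23, 0.451, 1.17 and 2.89 TPM and CEBPB 65.2, 82.9, 112.0 and 152.0 TPM in the order no treatment, CX3CL1, IFN-γ and both. In the same order IL1A had 0.0269, 0.383, 0.842 and 5.08 TPM, so only the last mean was above 1 TPM. HP and CATIP were below 1 TPM in all group means. These values describe libraries that share groups and carry no test.

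Marker levels also moved with the groups. The 3 mesenchymal markers summed to between 3960 and 5110 TPM in the untreated libraries and between 2070 and 3350 TPM with both proteins, where SOCS3 was highest, and the 7 epithelial markers, nearly all KRT18, to between 34.5 and 53.8 TPM and between 18.5 and 24.5 TPM. Leukocyte markers stayed at or near 0 (at most 0.0859 TPM untreated and 0.0711 TPM with both). The part of the mesenchymal and epithelial shift in the SOCS3 values was not tested.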

How the data were processed

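Total RNA of 12 CT26 libraries was made into strand-specific mRNA libraries by the authors, aligned to mm10 with STAR 2.7.3a in the VIPER pipeline and, per the submitters' processing notes, tested with DESeq2 1.22.1. The deposited values are TPM, scaled by the authors to the same total in each library. How counts became TPM and which annotation was used are not given in the sources used here. Since TPM are shares, values of a library depend on each other, and a value of 0 can be a failed estimate.

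Here log2(TPM + 1) was fitted for 11878 genes, those whose mean reached 0.2 TPM or more, with limma 3.58.1 (lmFit, eBayes with an intensity trend) in R 4.3.3, with all 12 libraries and no block. P-values were adjusted by Benjamini-Hochberg over all genes tested within each comparison. Of the 23636 symbols, 6747 were at 0 throughout. The fit was tested on simulated data for IFN-γ against no treatment, with 200 genes changed. These were drawn only from genes with an untreated mean log2(TPM + 1) above 1, so recovery of lower genes was not tested. The fit recovered 45 of the 200 at a log2 change of 0.5, 178 at 1.0 and 197 at 2.0. False calls numbered 1, 10 and 13. Most changes of 0.5 were therefore missed. The simulated errors were independent between libraries, so they lack the likeness of same-numbered libraries.

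Replicates carry the numbers 1 to 3 in every group. Same-numbered libraries deviated together from their group means for no treatment and IFN-γ (correlations across genes 0.429, 0.46 and 0.22), IFN-γ and CX3CL1+IFN-γ (0.63, 0.635 and 0.649) and CX3CL1 and CX3CL1+IFN-γ (0.351, 0.353 and 0.428). For no treatment and CX3CL1 these correlations were 0.387, 0.00472 and 0.301. The calls and counts given are those of the fit with no block, and the replicate block is an alternative. No source says what a number shares.

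All 8 members were named. Other genes came from fixed lists, or were the 5 most correlated with each called member. Some listed genes are not reported here. The members and lists were chosen with earlier results of these data known. Gene positions were from GENCODE vM21 (GRCm38) and promoter sequence from RefSeq GRCm38.p6; pandas 2.3.3 prepared the tables. Alternatives changed the pseudocount (to 0.1), the filter (none, or 1 TPM), the scaling (median-ratio), the libraries fitted (those compared, or all but 1) or added the replicate number as a block.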

Additional observations from a re-analysis of the deposited data

How the results depend on the processing

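Over the 7 members tested and the 4 comparisons, 323 of 336 values under alternatives kept their direction or moved by less than 1 standard error, on the same side of the threshold. The changes fell on the SOCS1, SOCS2, SOCS3, SOCS4 and SOCS6 values given above. In the interaction, all 119 values did.

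For IFN-γ against no treatment, 1 member was called, and 0 with no filter and with median-ratio scaling. Leaving out 1 library gave from 0 to 1. For CX3CL1+IFN-γ against IFN-γ, 0 members were called, and from 0 to 1 with 1 library left out. For CX3CL1+IFN-γ against CX3CL1, 1 member was called, 2 with the replicate block, and from 1 to 2 with 1 library left out.

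Over all genes, the replicate block raised the calls from 232 to 455 for CX3CL1, from 932 to 1929 for IFN-γ, from 43 to 95 for CX3CL1+IFN-γ against IFN-γ, from 558 to 1369 for CX3CL1+IFN-γ against CX3CL1 and from 0 to 52 for the interaction. It changed no call of a member other than SOCS1 in CX3CL1+IFN-γ against CX3CL1. Without the filter, CX3CL1+IFN-γ against IFN-γ gave 28 calls. With only the libraries compared it gave 20, and CX3CL1+IFN-γ against CX3CL1 gave 344. With 1 library left out, the calls ran from 152 to 268 for CX3CL1, 530 to 764 for IFN-γ, 16 to 54 and 270 to 668 for the combined group, and 0 to 11 for the interaction. The cause of these shifts was not tested.

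TPM carry no read depth, so the precision of low genes such as CISH is unknown here.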
